A study of Mus musculus with 8 samples.

Results

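The 2′-5′ oligoadenylate synthetase (OAS) family was followed through 8 libraries of sorted mouse Paneth cells (PCs), the granule-filled secretory cells at the base of the small intestinal crypts. It was taken as 6 genes, Oas1a, Oas1g, Oas2, Oas3, Oasl1 and Oasl2, of the 55414 genes in the count table, and all 6 were present in it. The family was chosen because Oas1a separated the zinc from the water libraries, so its difference between the groups is described below and not tested, and the same holds for the other members. The remaining 6 Oas genes of the mouse are given beside the members.

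Each library came from the PCs of 1 mouse, sorted by FACS from the small intestine, and the study's methods give the mice as C57BL/6J. One group of 4 mice drank Milli-Q water for 7 days and the other group of 4 drank water with 25 mM ZnSO4 for the same 7 days. All 8 mice, controls included, were then injected with TNF and sampled 3 hours later. No library without TNF is part of this comparison, so the values describe zinc against water in TNF-treated mice only.

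OAS enzymes are cytosolic sensors of double-stranded RNA. When they bind it they join ATP into 2′-5′ linked oligoadenylates (2-5A), a second messenger that starts antiviral decay of RNA in the cell. The genes are classic interferon-stimulated genes, transcribed when a factor that contains IRF9 binds an interferon-stimulated response element (ISRE) near their start. Among the members, Oas1a, Oas1g, Oas2 and Oas3 encode 2-5A synthetases, Oasl2 encodes an OAS-like protein that kept synthetase activity, and Oasl1 an OAS-like protein without it that restrains translation of Irf7 mRNA.

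All 12 Oas genes lie on chromosome 5 in GENCODE M39 (GRCm39, the build that UCSC names mm39). Oasl2 (ENSMUSG00000029561, 115034997 to 115050295) and Oasl1 (ENSMUSG00000041827, 115061294 to 115075974) form a pair on the plus strand. A gap of 5.79 Mb separates them from the other 10 genes, which fill 191327 bases. There Oas2 (ENSMUSG00000032690, 120868398 to 120887933), Oas3 (ENSMUSG00000032661, 120891163 to 120915729), Oas1g (ENSMUSG00000066861, 121014205 to 121025676) and Oas1a (ENSMUSG00000052776, 121031070 to 121046449) all lie on the minus strand.

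Because the members are interferon-stimulated, the 300 bases around each canonical start (250 before to 50 after) were searched on both strands for the ISRE letters GAAANNGAAA. Of 21627 such windows of protein-coding genes, 829 (3.83%) held a match. Of the 6 members 4 held one, and Oasl1 and Oasl2 held none in this window. A match describes the letters and is not a measured binding site. The 30 bases around each match are shown 5′ to 3′ on the gene's strand, with the matching bases in capitals, to show that Oas1a and Oas1g carry the same 30 bases and that the other matches differ.
Oas1a (chr5:121045586-121045615, minus): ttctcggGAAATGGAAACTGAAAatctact
Oas1g (chr5:121025672-121025701, minus): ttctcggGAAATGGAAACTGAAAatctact
Oas2 (chr5:120887970-120887999, minus): cacacttgagTTTCGATTTCctaggttcct
Oas3 (chr5:120915780-120915809, minus): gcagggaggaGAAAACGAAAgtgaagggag
In Oas1a and Oas1g the capitals cover 2 overlapping matches. Those of Oas1a span bases 3 to 18 counted from the canonical start, and those of Oas1g end 34 bases before it. In Oas2 the match is on the opposite strand, 56 to 47 bases before the start, and in Oas3 it is 70 to 61 bases before it. Outside the members, Oas1b and Oas1c point away from each other, and the windows of both hold the same double match. It is a single site (chr5:120950671-120950700) read from opposite strands.

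The near identity of Oas1a and Oas1g also touches their counts. Their coding sequences, of 367 codons each, were identical at 97.0% of bases. Of all stretches of 75 bases in the Oas1g transcripts, 37.7% also occur in Oas1a, and 11.1% of those of Oas1a occur in Oas1g. No source used here says how reads that fit both genes were counted, so the division of reads between Oas1a and Oas1g is uncertain. In Oas2, Oas3, Oasl1 and Oasl2 no stretch of 75 bases occurs in another gene. Oas1a lies inside the annotated span of Oas1d on the opposite strand, without shared exon bases, and Oas1d had 6 counts over all libraries. Of the exon bases of Oasl1, 82 overlap an antisense lncRNA, Gm13822, which had 22 counts over all libraries.

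The libraries held 10623658 to 15101627 counts. Zinc replicate 3 stood apart: over the log2 CPM (counts per 1000000 counts of the scaled library) of all genes tested it correlated at 0.847 to 0.903 with the other 7 libraries, whereas each of those correlated at 0.970 to 0.985 with its closest neighbour. A list of 18 TNF response genes summed to 152 CPM in it and to at least 1576 CPM in each of the others, and 12 enterocyte markers summed to 559 CPM against 81.7 to 159. In Milli-Q water replicates 3 and 4 a gene's deviation from its mean fell with transcript length (Spearman's rho -0.33 and -0.34), against 0.001 to 0.25 in the other libraries. All 10 PC markers, led by Lyz1 and Defa24, had counts, with summed levels of 415181 to 742458 CPM with water and 394920 to 495653 with zinc. Of 16 leukocyte markers, 6 were at 0 in all libraries (Cd3g, Cd8a, Itgax, Adgre1 and S100a8 among them) and Ptprc reached at most 0.0717 CPM. The list's sum was nevertheless 125 to 178 CPM with water and 74.3 to 110 with zinc, carried by Irf8, Cd74, Lyz2 and H2-Aa. Of 8 stromal and endothelial markers 6 were at 0 (Col1a1, Col1a2, Col3a1, Dcn, Cdh5 and Acta2) and the sum reached at most 0.298 CPM. All genes listed for goblet cells (8, at 10409 to 15088 CPM with water, 10671 to 15397 with zinc), crypt stem cells (8, at 420 to 611 and 498 to 1097) and enteroendocrine and tuft cells (8, at 0.862 to 11.6 and 1.29 to 12.8) had counts. Of the crypt stem cell markers all 7 tested had a fold change above 0 (median 1.01), and without zinc replicate 3 it was 6 of 7 (median 0.88). Of the enterocyte markers all 6 tested were above 0 (median 0.99), and without zinc replicate 3 it was 2 of 6 (median -0.31). All 4 leukocyte markers tested were below 0 (median -0.94), and 3 of 4 without zinc replicate 3 (median -0.87). PC markers were below 0 in 8 of 10, with and without that library (median -0.30 in both). Goblet cell markers were split, 4 above and 4 below 0 in both settings (median 0.36 and 0.18). The 2 enteroendocrine and tuft cell markers tested were above 0, and 1 of 2 without that library. The part of these other cell types in the values of the OAS genes was not tested. In bulk libraries fewer cells of a type and less RNA per cell cannot be told apart.

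Oas1a, a small 2-5A synthetase, had 55 to 187 counts per library and was at 11.8, 11.1, 11.8 and 12.3 CPM in Milli-Q water replicates 1 to 4. With zinc it was at 5.15, 7.17, 5.96 and 7.82 CPM in replicates 1 to 4. The groups did not overlap: the lowest water library was at 11.1 CPM and the highest zinc library at 7.82. The water libraries were close together, with an SD of 0.483 CPM around 11.8 (n = 4), and the zinc libraries spread more widely, at 6.53 ± 1.20 CPM (SD, n = 4). Choosing Oas1a for separating the groups favours such closeness, so it is not read as a trait of the gene. The fitted log2 fold change of zinc over water was -0.85 (SE 0.17). Without zinc replicate 3 it was -0.80 (SE 0.18), and this library was neither the lowest nor the highest of its group.

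Oas1g, the near copy of Oas1a, was at 1.91, 1.79, 1.23 and 1.52 CPM with water. The zinc libraries were at 1.69, 1.00, 0.421 and 1.29 CPM. The groups overlapped, since zinc replicate 1 was above the water replicates 3 and 4. Its log2 fold change was -0.58 (SE 0.42), and -0.31 (SE 0.38) without zinc replicate 3, where the value shrank by over 1.5 times. Summed, which settles the division of reads assigned to either gene but not the loss of any that were dropped, Oas1a and Oas1g were at 13.4 ± 0.468 CPM with water against 7.63 ± 1.25 CPM with zinc (SD, 4 mice each). The sum did not overlap between the groups, at 12.9 to 13.8 and 6.39 to 9.11 CPM.

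Oas2 encodes the medium-sized synthetase and was the member with the fewest counts, at 10 to 22 counts per water library and 2 to 9 per zinc library. In CPM it was at 0.752, 1.31, 1.23 and 1.04 with water. With zinc it was at 0.562, 0.287, 0.140 and 0.726 CPM. The groups did not overlap, but the gap was narrow, from 0.726 to 0.752 CPM, and 3 counts are worth 0.179 to 0.369 CPM in these libraries. So few counts leave the size of the gap uncertain. Oas2 entered the fit only through the water group: its level reached the filter's minimum, 0.776 CPM before scaling, in 4 of 4 water and 0 of 4 zinc libraries. Its log2 fold change was -1.34 (SE 0.51), and -1.04 (SE 0.50) without zinc replicate 3.

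Oas3, the largest synthetase with 1138 codons, was at 2.87, 4.05, 3.69 and 2.56 CPM with water. The zinc libraries were at 2.06, 0.789, 0.140 and 1.45 CPM. No zinc library reached the water libraries, and zinc replicate 3, with 2 counts, was far below the other zinc libraries. Its log2 fold change of -1.59 (SE 0.55) was the largest in size among the members. It was -1.21 (SE 0.37) without zinc replicate 3 and again the largest of the 6.

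Of the OAS-like genes, Oasl1 was at 5.74, 9.05, 6.65 and 4.96 CPM with water. With zinc it was at 4.69, 3.23, 2.60 and 3.95 CPM. The groups did not overlap, although only 4.69 and 4.96 CPM faced each other across the gap. Water replicate 2 was the highest library, as it was for Oas2, Oas3 and Oasl2. The log2 fold change of Oasl1 was -0.88 (SE 0.27), and -0.75 (SE 0.26) without zinc replicate 3.

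Oasl2 was at 14.1, 22.0, 13.2 and 11.0 CPM with water. The zinc libraries were at 10.4, 6.67, 3.65 and 6.94 CPM. Again the groups did not overlap and their nearest libraries were close, at 10.4 and 11.0 CPM. The water group spread from library to library far more than it did for Oas1a, with a coefficient of variation of 32.1% against 4.11%. Oas1a was chosen for separating the groups, which favours a close water group, so nothing is read from this contrast. The log2 fold change was -1.14 (SE 0.31), and -0.93 (SE 0.25) without zinc replicate 3.

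**Figure D1:**
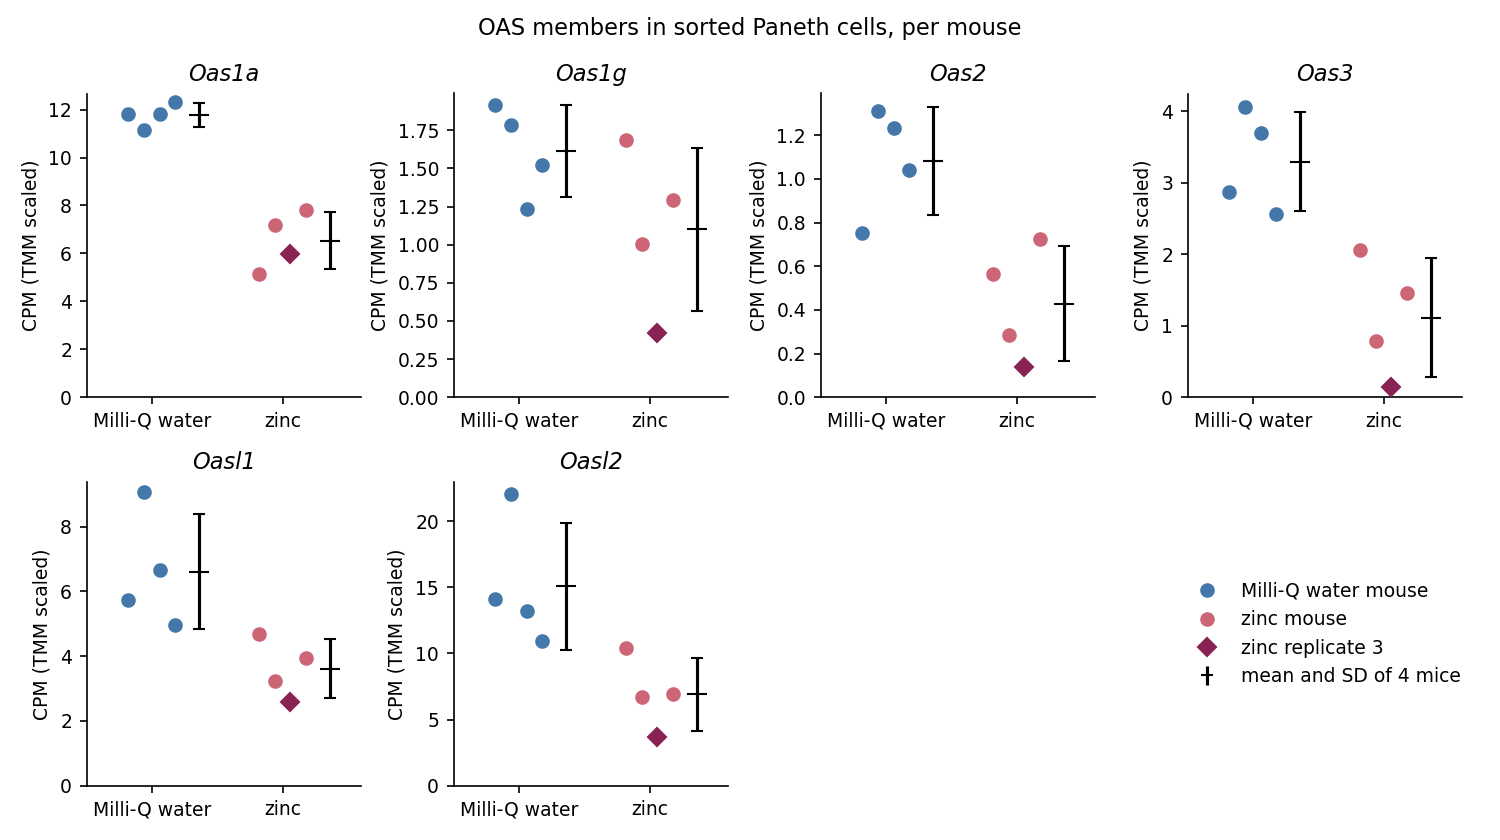
Level of the 6 OAS members in each library, as CPM on linear axes from 0, with 1 point per mouse, zinc replicate 3 as a diamond, and the mean and SD of 4 mice beside each group. For Oas1a the 4 water libraries sit between 11.1 and 12.3 CPM and the 4 zinc libraries between 5.15 and 7.82, whereas Oas1g overlaps between the groups.

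Across the family, all 6 members passed the filter on low counts and all 6 had a fold change below 0, with a median of -1.01 beside 0.0062 over the 10707 genes tested. In 5 of the 6, all but Oas1g, the groups did not overlap, and 3.12% of all genes tested were lower with zinc in this way. Since Oas1a was chosen on this contrast, nothing is read from these counts. Without zinc replicate 3 the 6 were again below 0 (median -0.86, 0.0042 over 10755 genes), and the 5 did not overlap, which leaving out a library cannot change, beside 3.99% of all genes. Summed over the 6 members, the levels were 39.4 ± 6.92 CPM with water against 19.7 ± 5.03 CPM with zinc (SD, 4 mice each), and 19.1 to 24.6 CPM in the zinc libraries other than replicate 3.

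No gene of the 10707 passed an adjusted p of 0.05 between zinc and water (0%; edgeR quasi-likelihood test, Benjamini-Hochberg adjustment, smallest adjusted p 0.485), so no member passed either. Before adjustment 1092 genes had a p under 0.05, and 405 of them were lower with zinc (3.78% of those tested). DESeq2 called 4 of 18747 genes (Cd74, Slc14a1, Ms4a12 and Lrp1, named after their values were seen), none of them an Oas gene, and limma-voom with sample weights called 0. Without zinc replicate 3, edgeR again called 0 of 10755 genes (0%), with 867 at an unadjusted p under 0.05 and 400 of these lower with zinc (3.72%).

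**Figure D2:**
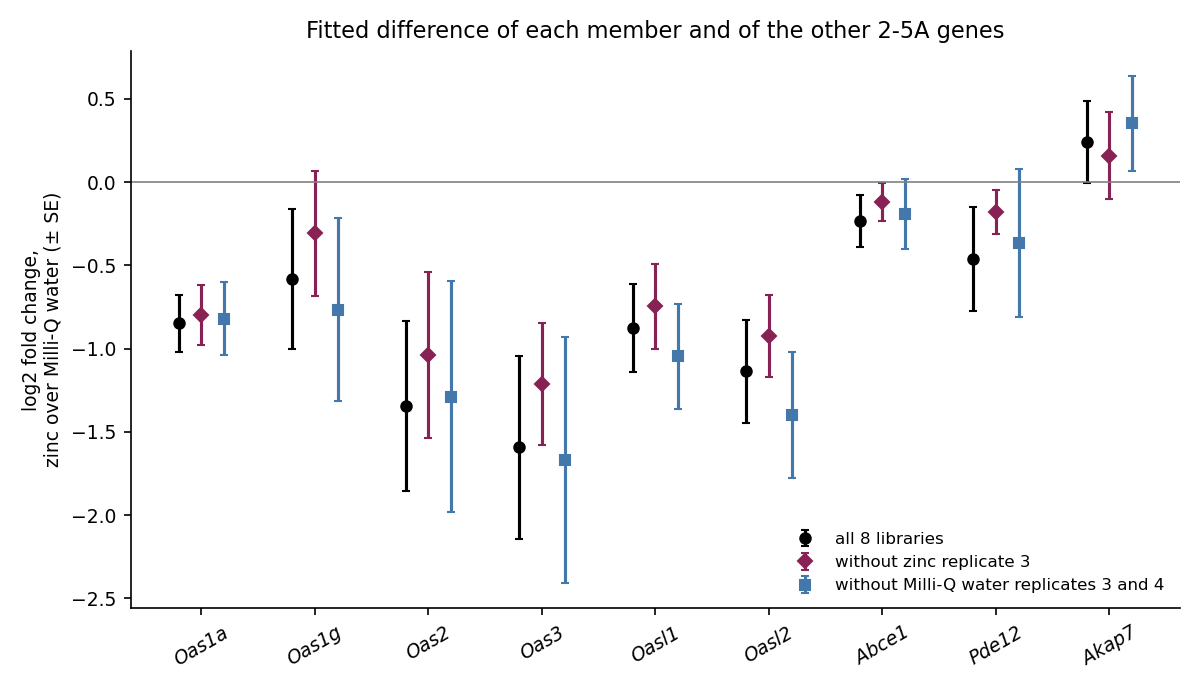
Fitted log2 fold change, zinc over Milli-Q water, of the 6 members and of Abce1, Pde12 and Akap7, with its SE, for all 8 libraries, without zinc replicate 3, and without Milli-Q water replicates 3 and 4. The value of Oas1a lies at -0.85, -0.80 and -0.82 in the 3 fits, while Oas1g moves from -0.58 to -0.31 when zinc replicate 3 is left out.

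The remaining Oas genes were at or near 0. Oas1e and Oas1h were listed at 0 counts in all 8 libraries. Oas1b, which in laboratory mouse strains such as C57BL/6J carries a premature stop, had 0 to 7 counts per library, Oas1c 1 to 14 and Oas1d 0 to 2. Oas1f had 0 to 2 counts in 7 libraries and 16 in zinc replicate 3. None of these 6 genes passed the filter on low counts, and in none were the groups apart. Oas1c had higher counts in some zinc libraries (5, 14, 7 and 6) than in the water libraries (4, 9, 1 and 5), and as it failed the filter no difference is given.

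Genes that act on 2-5A or on its pathway had fold changes closer to 0 than the members. Abce1, an inhibitor of the 2-5A pathway that is also needed to recycle ribosomes, was at 128 ± 5.61 CPM with water against 109 ± 18.5 with zinc (SD over 4 mice in each group), with a fitted log2 fold change of -0.23 (SE 0.16). Pde12, a phosphodiesterase that degrades 2-5A, was at 36.3 ± 3.41 and 26.3 ± 11.4 CPM, a log2 fold change of -0.46 (SE 0.31) that shrank to -0.18 (SE 0.13) without zinc replicate 3. Akap7, whose protein can also cleave 2-5A, was at 4.28 ± 1.09 and 5.07 ± 0.945 CPM and was the single tested gene of the pathway with a value above 0 (0.24, SE 0.25). Of these 3 genes 0 passed the test, 2 had a fold change below 0 and 1 above, with a median of -0.23, and all 3 overlapped between the groups.

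Levels of different genes were compared as CPM per kilobase of transcript, a measure that the choice of the family did not use. By the length of all annotated exons merged, the order was Oasl1, Oasl2, Oas1a, Oas1g, Oas3 and Oas2. With water Oasl1 was at 2.53 ± 0.679 CPM per kilobase, Oasl2 at 2.36 ± 0.758 and Oas1a at 1.47 ± 0.0605 (SD, n = 4). Oas1g was at 0.670 ± 0.126, Oas3 at 0.466 ± 0.0983 and Oas2 at 0.243 ± 0.0556 CPM per kilobase. With zinc the same 6 were at 1.38 ± 0.346, 1.08 ± 0.433, 0.817 ± 0.150, 0.457 ± 0.221, 0.157 ± 0.117 and 0.0960 ± 0.0592 CPM per kilobase.

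The 5 pairs of neighbours in this order were compared within each mouse, as a difference in log2 CPM per kilobase, by a two-sided exact sign-flip permutation test over the 8 mice, with p-values adjusted over the 5 pairs. The smallest p that 8 mice allow is 0.00781. The pairs and the direction of each difference were set by the same 8 libraries, which the p-values do not allow for. Oasl1 exceeded Oasl2 by 0.27 ± 0.27 (SD, n = 8, higher in 7 of 8 mice, exact adjusted p = 0.026). The difference of Oasl2 over Oas1a was 0.48 ± 0.59 (7 of 8 mice) and missed the threshold (exact adjusted p = 0.0547). Oas1a exceeded Oas1g by 1.03 ± 0.61 (7 of 8 mice, exact adjusted p = 0.026) and Oas1g exceeded Oas3 by 1.21 ± 0.91 (8 of 8 mice, exact adjusted p = 0.026). Oas3 exceeded Oas2 by 0.64 ± 0.60 (7 of 8 mice, exact adjusted p = 0.0391). Without zinc replicate 3 the difference of Oasl2 over Oas1a was 0.60 and passed (exact adjusted p = 0.026). With any 1 mouse left out the exact test allows no p below 0.0156, and the other 4 pairs each lost the call in most of these fits.

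The top of the order depends on the length. The merged exons of Oas1a measure 7989 bases over 12 annotated transcripts, whereas its longest coding transcript measures 1911 bases, and which transcripts gave the reads cannot be read from a gene count. Per kilobase of the longest coding transcript, Oas1a came first at 6.16 ± 0.253 CPM with water against 3.42 ± 0.626 with zinc, followed by Oasl2 at 4.82 ± 1.55 and 2.21 ± 0.884, and Oasl1 at 2.99 ± 0.803 and 1.64 ± 0.409 (SD, 4 mice each). Oas1a then exceeded Oasl2 by 0.55 ± 0.59 on the log2 scale (SD, n = 8, higher in 6 of 8 mice, exact adjusted p = 0.0469), and Oasl2 exceeded Oasl1 by 0.52 ± 0.27 (7 of 8 mice, exact adjusted p = 0.026). The order by the longest coding transcript was also set by the libraries tested. Under either length Oas1g, Oas3 and Oas2 were the 3 lowest, in that order. Oas1g also keeps the uncertainty of the reads it shares with Oas1a.

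As shares of the summed level of the 6 members per kilobase of merged exons, Oas1a made up 19.6 ± 4.18% with water and 21.9 ± 7.06% with zinc (SD, 4 mice each). Oas3 made up 6.02 ± 0.694% with water and 3.48 ± 2.11% with zinc, and reached its lowest share, 0.782%, in zinc replicate 3. Per kilobase of the longest coding transcript, Oas1a made up 39.8 ± 6.77% with water and 43.3 ± 11.0% with zinc.

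**Figure D3:**
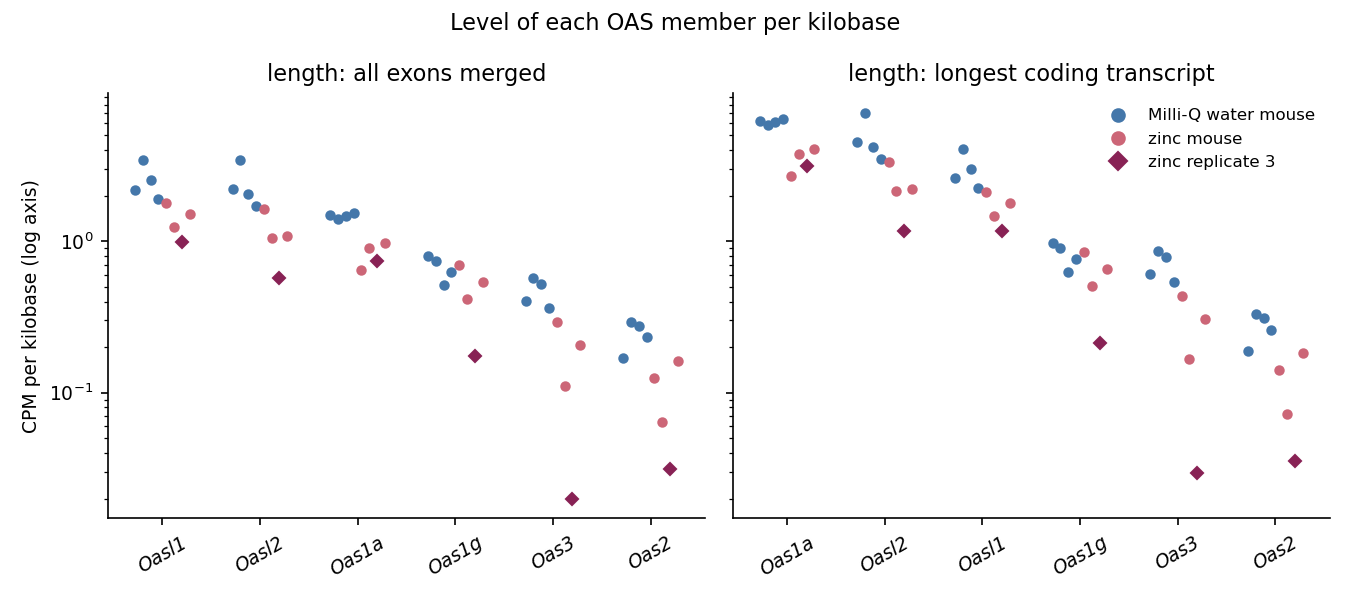
CPM per kilobase of each member on a log axis, 1 point per mouse, by merged exon length on the left and by the longest coding transcript on the right, each ordered by mean level. By its mean Oas2 lies lowest in both panels, and Oas1a moves from the third to the first place among the members.

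The genes around the family were taken from fixed lists, chosen with earlier results of these data known. Of 13 genes that sense RNA or DNA or pass on that signal, all 13 were tested and 0 passed. Of these, 10 had a fold change below 0 and 3 above, with a median of -0.34, and no gene's groups were apart. Without zinc replicate 3 the median was -0.07, with 9 below 0 and 4 above. Trim25, a ubiquitin ligase that promotes RIG-I signalling, was at 178 ± 17.4 CPM with water against 141 ± 37.8 with zinc (SD, 4 mice each). Sting1, the adaptor of cytosolic DNA sensing, was at 157 ± 14.1 and 111 ± 73.7 CPM, with 8.14 CPM in zinc replicate 3, and its log2 fold change of -0.51 (SE 0.62) became -0.11 (SE 0.16) without that library. Dhx58, which encodes the RNA helicase LGP2, had the largest value of the list, -0.89 (SE 0.46), and -0.77 (SE 0.47) without zinc replicate 3.

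Of 16 interferon signalling genes, from receptors to transcription factors and feedback inhibitors, 0 of 16 passed the test, 15 had a fold change below 0 and 1 above, and the median was -0.38. Without zinc replicate 3 the median was -0.21, with 12 below 0 and 4 above. In 5 of them the groups did not overlap and zinc was lower, beside 3.12% of all genes tested: Ifnar2, Il10rb, Irf9, Irf1 and Socs1. Without zinc replicate 3 these 5 were again apart, which leaving out a library cannot change, beside 3.99% of all genes. In that setting 1 gene, Tyk2, was apart and higher with zinc, beside 419 of all 10755 genes. It was at 24.2 to 25.5 CPM against 17.4 to 23.8 with water. Ifnar2, Il10rb, Irf9 and Tyk2 are named after their values were seen. Jak1, a kinase bound to interferon receptors, was at 161 ± 5.38 CPM with water against 143 ± 35.6 with zinc (SD, 4 mice each). It was at 90.0 CPM in zinc replicate 3, and its log2 fold change of -0.17 (SE 0.19) was 0.003 (SE 0.11) without that library. Irf1, an interferon- and TNF-induced transcription factor, was at 156 ± 11.5 and 85.2 ± 44.2 CPM, a log2 fold change of -0.87 (SE 0.39), and -0.55 (SE 0.14) without zinc replicate 3.

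Usp18, an interferon-induced inhibitor of the receptor, had the largest value of that list, -1.37 (SE 0.48), and -1.05 (SE 0.33) without zinc replicate 3, and its groups overlapped at 7.28 to 12.4 CPM with water and 1.05 to 7.74 with zinc. Socs1, another feedback inhibitor, was at 3.53 ± 0.843 and 1.61 ± 0.950 CPM (SD, 4 mice each), with a log2 fold change of -1.14 (SE 0.52) that shrank by over 1.5 times, to -0.76 (SE 0.30), without zinc replicate 3. Irf9, the DNA-binding part of the factor that reads the ISRE, was at 23.0 ± 2.51 and 13.5 ± 4.20 CPM, a log2 fold change of -0.77 (SE 0.23), and -0.56 (SE 0.14) without zinc replicate 3. All 10 interferon ligand genes on the list (Ifnb1, Ifna1, Ifna2, Ifna4, Ifna5, Ifnl2, Ifnl3, Ifng, Ifnk and Ifne) were at 0 counts in every library. A count of 0 allows up to 3 counts, which is 0.179 to 0.369 CPM per library, for counting error only.

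Of the 18 TNF response genes 16 were tested and 0 of 16 passed. All 16 had a fold change below 0, with a median of -0.53, but without zinc replicate 3 the split was 11 below and 5 above with a median of -0.21. Nfkbia, the inhibitor of NF-kB that TNF induces, was at 498 ± 27.4 CPM with water against 352 ± 218 with zinc (SD, 4 mice each), with 28.6 CPM in zinc replicate 3, and its log2 fold change of -0.50 (SE 0.60) became -0.11 (SE 0.12) without it. Zfp36, which promotes decay of cytokine mRNAs, was at 303 ± 35.3 and 162 ± 113 CPM, a log2 fold change of -0.91 (SE 0.49), and -0.56 (SE 0.24) without zinc replicate 3. The largest values were those of the chemokine Cxcl2, -2.36 (SE 0.80) and -1.91 (SE 0.59) without zinc replicate 3, and of the siderophore-binding protein Lcn2, -1.65 (SE 0.79) and -1.21 (SE 0.49), and the groups of both overlapped. The groups were apart in Birc3 and Ier3, both lower with zinc and named after their values were seen (2 of 16, beside 3.12% of all genes tested).

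**Figure D4:**
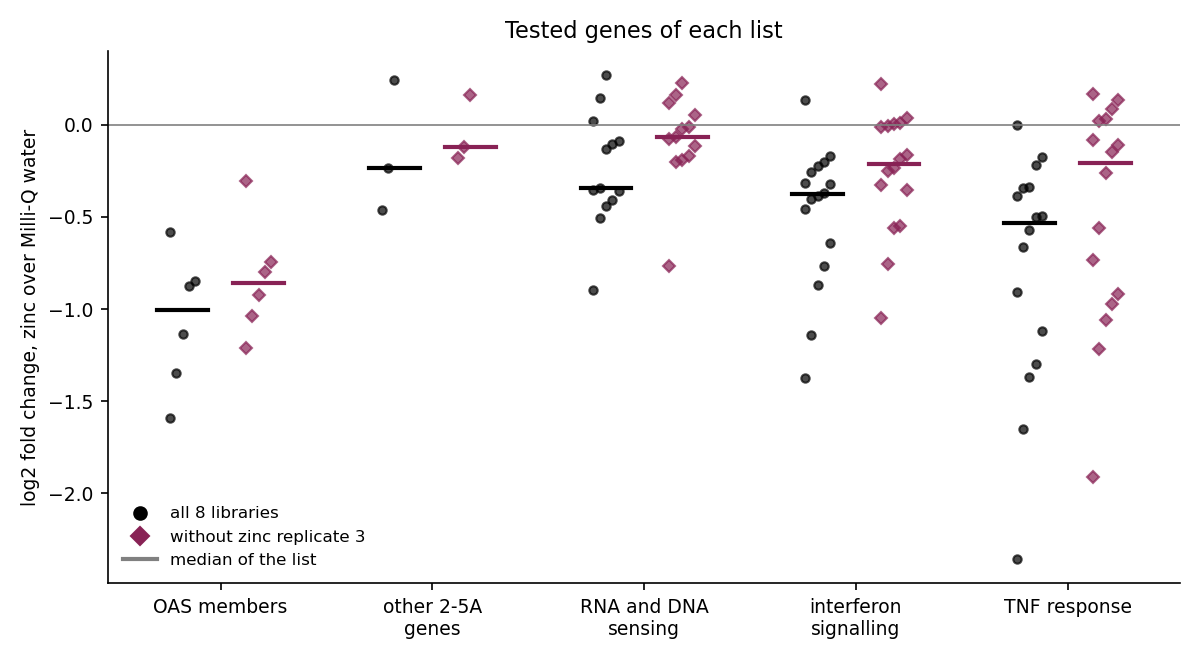
Log2 fold change, zinc over Milli-Q water, of every tested gene in 5 lists, with all 8 libraries as black circles and without zinc replicate 3 as diamonds, and bars at each list's median. The median of the OAS members is -1.01 with and -0.86 without that library, that of the TNF response list -0.53 and -0.21.

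The pattern of Oas1a over the 8 libraries was compared with that of 10706 other genes as the root-mean-square difference of log2 CPM, each gene centred on its own mean. The 5 genes nearest to it were Tc2n (0.164), Zfp639 (0.172), Cenpl (0.188), Cstf3 (0.188) and Ier3ip1 (0.189), against a median of 0.549 over all genes and 0.457 for a flat line. In 4 of these 5, all but Ier3ip1, the groups did not overlap, which the choice by likeness to Oas1a makes likely. Tc2n was at 24.2 CPM with water and 13.5 with zinc on average, Zfp639 at 7.34 and 4.77, and Cstf3, which encodes a subunit of the cleavage stimulation factor, at 11.4 and 7.47. The other members were farther away: Oasl1 ranked 1395 (0.390), Oas2 4319 (0.506), Oas1g 4648 (0.521), Oasl2 5232 (0.544) and Oas3 9711 (0.943). This measure counts the size of a swing as well as its shape. With each profile divided by its SD, Oas2 ranked 408, Oasl1 808, Oas3 865, Oasl2 931 and Oas1g 2375.

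Oas1a was also the member least lowered in zinc replicate 3. In that library Oas3 lay 2.64 below its own mean on the centred log2 scale (-2.64), Oas2 at -1.45, Oasl2 at -1.38, Oas1g at -1.30 and Oasl1 at -0.84, and these 5 had their lowest value there. Oas1a lay at -0.54 there and had its lowest value, -0.74, in zinc replicate 1. In zinc replicate 3 Oas3 and Oas2 had 2 counts each and Oas1g 6, so the size of their drops is uncertain.

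**Figure D5:**
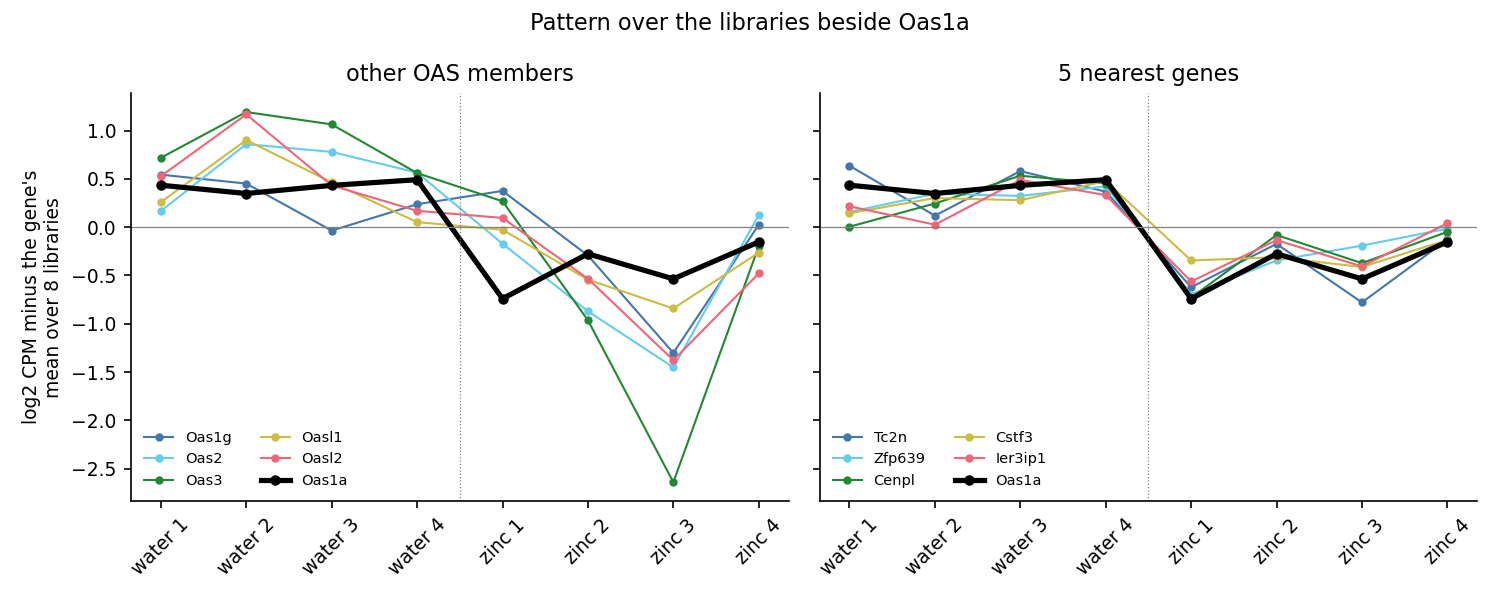
Log2 CPM of each gene minus its own mean over the 8 libraries, with Oas1a in black beside the other members on the left and beside its 5 nearest genes on the right, where lines only join the points of a gene. In zinc replicate 3 Oas3, with 2 counts there, drops to -2.64 while Oas1a lies at -0.54.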

How the data were processed

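PCs of 8 mice (4 with Milli-Q water, 4 with zinc) were profiled by bulk RNA-seq with a stranded TruSeq mRNA kit. The values the authors deposited are whole read counts for each Ensembl ID, with no normalization applied. The submitters' processing notes name FastQC 0.12.0, STAR 2.7.10a, DESeq2 and the build mm39, with no role or order. The counter, annotation release, strand setting and handling of reads that fit several genes are not given in the sources used here, and a read shared by Oas1a and Oas1g may have been dropped or assigned to either.

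From these counts, 54749 of 55414 IDs were given symbols by GENCODE M39 (the other 665 IDs held 0.00443% of counts). Samples were grouped by their titles. Genes were filtered by filterByExpr, scaled by TMM and fitted with edgeR 4.0.16 (quasi-likelihood, no covariates, R 4.3.3) over all 10707 genes passing, which held 99.9% of counts. CPM are TMM-scaled. The SE of a log2 fold change is its size divided by the square root of F. DESeq2 1.42.0 and limma 3.58.1 were alternatives, with other scalings, filters, a replicate block and libraries left out. Depth was 10623658 to 15101627 counts. Library pairs of a group differed by more than counting noise (chi-square per degree of freedom of at least 6.37), so each counts as 1 replicate. Levels were compared as log2 of counts with 0.5 added, per kilobase, with scipy 1.17.1. Library size was not divided out there, since it cancels in a difference within a mouse. The steps were tested on simulated counts.

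The members and lists were chosen with earlier results of these data known. Named were the 6 members, every other Oas gene, from each context list the 2 genes of highest mean CPM and the 2 of largest fold change, and the 5 genes nearest to Oas1a. Others were chosen after their values were seen. Protein sequences were not used here, and some genes of the lists are not reported here.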

Additional observations from a re-analysis of the deposited data

Results flagged for a closer look

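Among 20 genes named in the text with their values, both groups of 4 libraries were searched for a library whose gap to the nearest other exceeded Dixon's 95% critical value, taken as a share of the group's range on the log2 scale. Of the 40 groups 4 held one. Chance gives about 1 in 20, or 2, for independent groups. These genes share the same libraries, and some were named for their large fold changes, so 4 against 2 cannot be read as a test. No OAS member was among them. All 4 were in zinc replicate 3, the library that stood apart across all genes. Sting1 was at 8.14 CPM there and at 108 to 174 CPM in the other zinc libraries. Jak1 was at 90.0 CPM against 152 to 167. Socs1 was at 0.211 CPM against 1.94 to 2.34, which is 3 counts in that library. Nfkbia was at 28.6 CPM against 434 to 507. Irf9, which was not searched, was at 7.37 CPM in that library and at 14.7 to 16.8 in the other zinc libraries. The fold changes of these genes with and without this library stand in the report, and no cause was tested.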

How the results depend on the processing

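The fold changes of the members kept their sign in all 18 alternatives tried for them (17 for Oas2, which did not pass the stricter filter). No member passed an adjusted p of 0.05 in any of them. In the 5 members whose groups did not overlap, leaving out libraries can hardly reverse the sign. Those alternatives therefore say nothing of the stability of their sign, and the family was chosen on this contrast. Oas1a ran from -0.95 to -0.75, Oas1g from -0.85 to -0.31, Oas2 from -1.74 to -0.98, Oas3 from -2.06 to -1.21, Oasl1 from -1.05 to -0.68 and Oasl2 from -1.40 to -0.89. The median of the members ran from -1.21 to -0.86. The number of members whose groups did not overlap was 5 under the other 3 scalings. Leaving out a library cannot make such groups overlap, so those 8 alternatives, also at 5, say nothing of stability. Leaving out Milli-Q water replicates 3 and 4 together with zinc replicate 3 was chosen after seeing the data and gave a median of -0.95. The count of called genes was 0 in 17 alternatives and 4 by DESeq2, where the cause was not tested.

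With the replicate number as a block, 0 genes were called and the median of the members was -1.01. Libraries that share a number in the 2 groups deviated from their group means with correlations of -0.027 to 0.027. None correlated best with its own number. These values gave no sign of a pairing by number, but with so few libraries in each group they cannot exclude one. As 0 genes were called without the block, it had no call to remove, and it added none.

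The order of levels was less stable. With the longest coding transcript, Oasl1 over Oasl2 reversed to -0.52 and Oasl2 over Oas1a to -0.55. With a pseudocount of 1, Oasl2 over Oas1a was 0.48 and passed the threshold (exact adjusted p = 0.0469). When each library was left out in turn, Oasl1 over Oasl2 was 0.19 to 0.30, Oasl2 over Oas1a 0.36 to 0.60, Oas1a over Oas1g 0.89 to 1.20, Oas1g over Oas3 0.96 to 1.38 and Oas3 over Oas2 0.55 to 0.82. Oasl2 over Oas1a passed without zinc replicate 3 (0.60). The other 4 pairs lost the call in most of these, where 7 mice allow no p below 0.0156, and without Milli-Q water replicates 3 and 4 (0.28, 0.92, 1.47 and 0.60), where 6 mice allow none below 0.0312. Of the 5 genes nearest to Oas1a, 1 was again among the nearest 5 without zinc replicate 3 and 2 when profiles were divided by their SD, so these names depend on the setting. At the counts of Oas2 (2 to 22 per library) and of the other Oas1 genes, depth limits what can be said of their levels.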
